A study of Homo sapiens with 6 samples.

Results

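The small nucleolar RNA (snoRNA) host genes are genes whose spliced transcript is mostly non-coding and whose introns release snoRNAs. They were taken here as every row of the gene count table whose symbol is SNHG followed by a number, together with GAS5, ZFAS1, DANCR and EPB41L4A-AS1. No expression minimum was set. This gave 29 rows of 58735, carrying 28 symbols because SNHG28 occurs under 2 gene identifiers. Current names SNHG29, SNHG30 and SNHG32 stand in the table under the older symbols LRRC75A-AS1, LINC02001 and C6orf48. These 3 genes were matched by gene identifier, are described beside the 29 rows and are not counted among them.

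RNA came from T47D, an established human breast cancer line with luminal features and receptors for estrogen and progesterone. There were 3 control libraries (labelled CK) and 3 exposed libraries (labelled CQ). The labels do not spell out the treatment of either group. The series title names fine particulate matter, PM2.5, and the extraction protocol, worded alike for all 6 libraries, places extraction after 48 h of it, so "exposed" here stands for the CQ group. Dose and vehicle were not found in the sources used here, and no transgene or other genetic change is named for either group. The replicates are called biological, but nothing says that they were separate cultures, so the p-values measure only the spread between these samples, which may be technical. The question the design puts is which transcripts differ between exposed and control cells of 1 line.

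Most vertebrate snoRNAs are not transcribed from promoters of their own. They are cut from the introns of a host transcript after splicing, and bind a set of core proteins that makes them stable particles. Box C/D snoRNAs guide 2′-O-methylation and box H/ACA snoRNAs guide pseudouridylation, mainly of ribosomal RNA, while small Cajal body RNAs (scaRNAs) guide the same changes in spliceosomal RNAs. Many host transcripts begin with a cytosine followed by a run of pyrimidines, the terminal oligopyrimidine (TOP) tract otherwise known from the messenger RNAs of ribosomal proteins. Because their reading frames are short, several spliced hosts are also substrates of nonsense-mediated decay, so their level depends on translation as well as on transcription. GAS5, the growth arrest-specific transcript, is the best known case.

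The libraries held 30970218 to 36878525 counts assigned to genes. Scaling factors between libraries (TMM) were 1.037, 1.002 and 1.037 in controls and 0.948, 1 and 0.9787 in exposed libraries. Every exposed factor lay below every control. Mitochondrial genes took 8.97% to 9.71% of the counts, with the ranges of the groups overlapping. All 8 luminal markers checked (ESR1, PGR, GATA3, FOXA1, KRT8, KRT18, KRT19, EPCAM) were detected in every library. Of these, 6 were called lower in exposed cells, beside 22.1% of all tested genes. The median log2 fold change of the 8, exposed over control, was -1.09. Of 8 markers of other cell types 3 had enough counts to be tested and none of these passed; the summed level of all 8, in scaled counts (CPM), was 61.5 to 70.3 in controls and 71.3 to 74.8 in exposed libraries, nearly all of it COL1A1. PECAM1 was at 0 in the 3 control libraries and CDH5 at 0 in the 3 exposed libraries. In bulk RNA, fewer cells of a type and less RNA per cell cannot be told apart. Whether counting used strand was not found in the labels, so reads of a host and of a gene overlapping it cannot be told apart.

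The host genes split in both directions. Of the 29 rows, 24 had enough counts to be tested. Of those, 10 were higher in exposed cells, 8 were lower and 6 did not pass, by edgeR's quasi-likelihood test with a Benjamini-Hochberg adjusted p under 0.05 over all 17337 tested genes. Over all tested genes 21.8% were called higher and 22.1% lower, or 43.9% in either direction. Among the 2384 tested long non-coding genes the shares were 8.52% higher and 21.4% lower. The 3 exposed libraries lay wholly above the 3 controls for 10 of the 24 members and wholly below them for 9, against 25.5% and 26.5% of all tested genes, or 51.9% in either direction. The median log2 fold change of the 24 was -0.24, beside -0.20 for long non-coding genes and -0.02 for all tested genes, so the median hid a wide spread on both sides. A change of at least 1.5-fold was reached by 6 of the members called higher, where 8.96% of all tested genes were called higher and reached that size, and by 5 of those called lower, where the share of all tested genes was 11.2%. When the test itself asked for more than a 1.5-fold change, 3 members were called higher and 4 lower. In the same test 715 of all genes were higher and 783 lower.

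**Figure D1:**
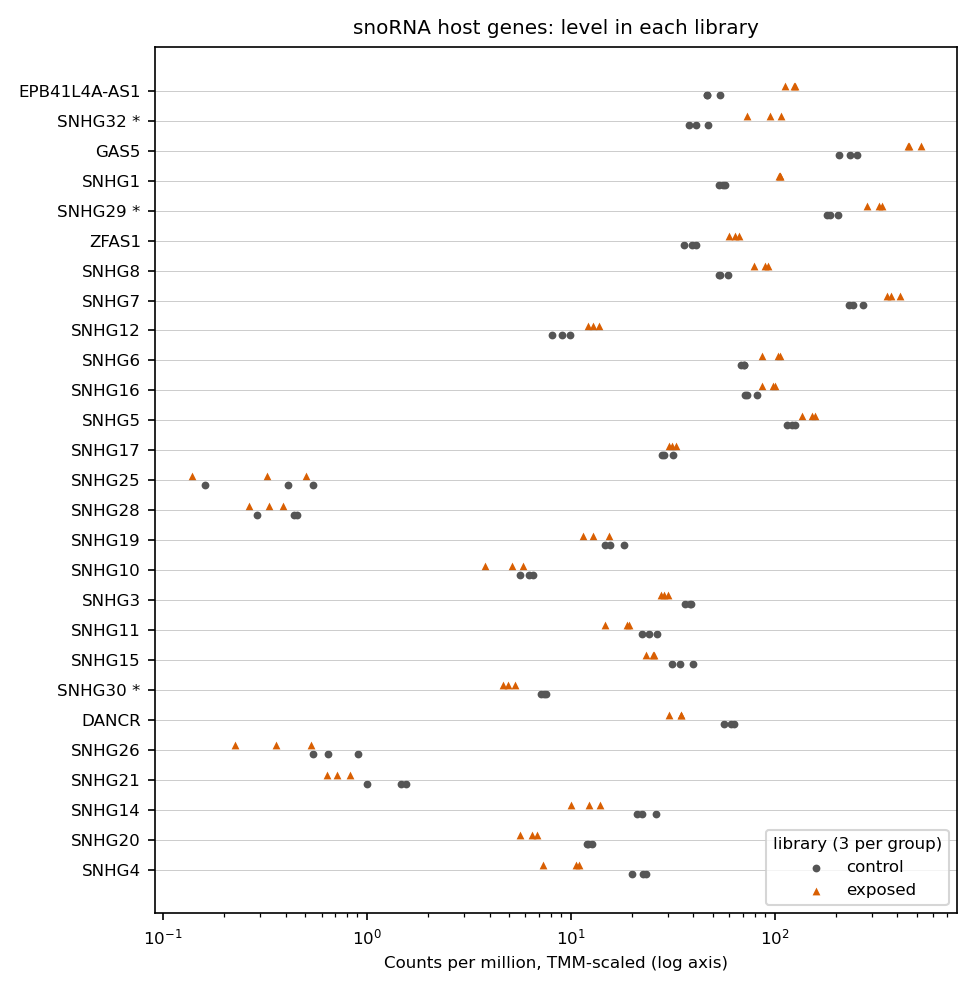
Level of each tested host gene in each of the 6 libraries, in CPM (counts scaled by TMM to libraries of equal size) on a log axis; circles are control and triangles exposed libraries, 3 each, ordered by log2 fold change, and an asterisk marks the 3 genes matched by gene identifier. From EPB41L4A-AS1 to SNHG5 the triangles lie to the right of the circles without overlap, and from SNHG3 to SNHG4 they lie to the left without overlap; SNHG17, SNHG25, SNHG28, SNHG19 and SNHG10 overlap.

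Together the host genes took more of the counts in every exposed library than in any control. Levels are given throughout as CPM, counts scaled by TMM to libraries of equal size, and differences as log2 fold changes of exposed over control with their standard error. Summed over the 10 members called higher, the level was 932, 1019 and 913 CPM in the controls and 1639, 1489 and 1651 CPM in the exposed libraries. Summed over the 8 called lower it was 207, 225 and 219 CPM against 135, 138 and 128 CPM. Both sets were picked by their call, so the direction of these sums was fixed in advance. All 29 rows together took 0.123% to 0.130% of the counts in control libraries and 0.167% to 0.179% in exposed ones, without overlap. GAS5 and SNHG7 alone made up 37.9% to 40.5% of the host gene counts in controls and 47.7% to 48.8% in exposed cells.

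The largest rise was in EPB41L4A-AS1 (chr5:112160526-112164276, plus strand, GRCh38), a long non-coding RNA that overlaps EPB41L4A on the opposite strand and carries the box H/ACA snoRNA SNORA13. The sequence of SNORA13 (chr5:112161485-112161617, plus strand, GENCODE 29, GRCh38) is shown because it is the only small RNA annotated inside this strongest riser, with the ACA of its 3′ end in capitals.
SNORA13: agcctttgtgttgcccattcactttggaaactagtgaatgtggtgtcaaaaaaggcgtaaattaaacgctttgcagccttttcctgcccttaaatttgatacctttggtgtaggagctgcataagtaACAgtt
EPB41L4A-AS1 stood at 46.5, 54.0 and 46.7 CPM in the 3 control libraries and at 126, 112 and 124 CPM in the 3 exposed libraries. Every exposed library was above 100 CPM and every control below 60 CPM. The log2 fold change was 1.30 ± 0.08 (adjusted p = 2.6e-14, edgeR), or 2.46-fold, and the mean went from 49.1 ± 4.28 to 121 ± 7.38 CPM (SD, n = 3).

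GAS5 (chr1:173863900-173868882, minus strand) carries 10 box C/D snoRNAs and SNORA103 in RefSeq, while the annotation behind the count table lists no snoRNA gene inside it. It stood at 234, 254 and 207 CPM in the controls and 458, 454 and 520.4 CPM in the exposed libraries, and the lowest exposed library was well above the highest control. The log2 fold change was 1.04 ± 0.08 (adjusted p = 5.2e-12, edgeR). Of its 29 GENCODE 29 transcripts 6 begin with the same TOP tract, in capitals in their first 30 bases (chr1:173867960-173867989, minus strand), shown because GAS5 is the textbook TOP host and was the most abundant member per length.
GAS5: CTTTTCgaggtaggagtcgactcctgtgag

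SNHG1 (chr11:62851988-62855914, minus strand) was the first snoRNA host found with no apparent protein product, and it carries 8 named box C/D snoRNAs. Of these SNORD27 (chr11:62855012-62855083) and SNORD30 (chr11:62853663-62853732), both on the minus strand in GENCODE 29, show the 2 motifs that define the class. Box C near the 5′ end and box D near the 3′ end are in capitals.
SNORD27: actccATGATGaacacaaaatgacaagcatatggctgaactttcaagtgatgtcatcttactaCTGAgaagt
SNORD30: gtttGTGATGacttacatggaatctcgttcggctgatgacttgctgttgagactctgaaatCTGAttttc
SNHG1 stood at 56.0, 57.3 and 53.4 CPM in controls and 107, 105 and 107 CPM in exposed cells, with little spread inside either group. Its log2 fold change was 0.93 ± 0.08 (adjusted p = 1.1e-11, edgeR), close to that of GAS5 in size.

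ZFAS1 (chr20:49278178-49295738, plus strand), antisense to ZNFX1 and first described in mammary gland development, carries the 3 SNORD12 family snoRNAs. SNORD12B (chr20:49280319-49280409, plus strand, GENCODE 29) is shown with boxes C and D in capitals because it had counts of its own to set beside its host.
SNORD12B: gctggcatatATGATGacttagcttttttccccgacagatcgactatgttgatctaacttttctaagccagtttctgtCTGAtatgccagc
ZFAS1 stood at 39.6, 41.3 and 35.8 CPM in controls and 64.0, 59.8 and 66.7 CPM in exposed libraries, a log2 fold change of 0.71 ± 0.08 (adjusted p = 3.5e-08, edgeR). The SNORD12B row itself held 16, 7 and 15 counts in controls and 8, 19 and 14 in exposed libraries. Its groups overlapped, but counts this few do not show whether the snoRNA moved with its host.

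Of the rises past 1.5-fold, SNHG8 and SNHG7 had the smallest, both hosts of box H/ACA snoRNAs. SNHG8 (chr4:118278709-118279823, plus strand), host of SNORA24, stood at 53.4, 59.4 and 54.2 CPM in controls and 93.3, 79.1 and 89.9 CPM in exposed libraries (0.65 ± 0.08, adjusted p = 8.7e-08, edgeR). SNHG7 (chr9:136721366-136728184, minus strand), host of SNORA17A and SNORA17B, stood at 231, 273 and 242 CPM and 414, 356 and 373 CPM (0.62 ± 0.08, adjusted p = 1.4e-07, edgeR). In both, exposed replicate 2 was the lowest exposed library and control replicate 2 the highest control, and the groups did not overlap.

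Smaller rises were seen in SNHG12, SNHG6, SNHG16 and SNHG5. SNHG12, with 3 box H/ACA snoRNAs and SNORD99, went from 9.06 ± 0.922 to 12.97 ± 0.762 CPM (0.52 ± 0.12, adjusted p = 0.00096), and SNHG6, host of SNORD87, from 69.9 ± 1.41 to 99.2 ± 10.4 CPM (0.51 ± 0.08, adjusted p = 6e-06; mean ± SD, n = 3, edgeR). SNHG16 and SNHG5 rose least. SNHG16, which carries the 3 SNORD1 snoRNAs, stood at 71.5, 73.3 and 81.9 CPM in controls and 100.5, 86.6 and 98.5 CPM in exposed cells (0.33 ± 0.08, adjusted p = 0.0012, edgeR). SNHG5, host of SNORD50A and SNORD50B, stood at 122, 126 and 115 CPM and 159, 136 and 153 CPM (0.31 ± 0.08, adjusted p = 0.0015, edgeR). In SNHG6, SNHG16 and SNHG5 exposed replicate 2 was the lowest of its group, yet above every control.

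Among the members that fell, SNHG4 (chr5:139274102-139284899, plus strand) changed most. It carries SNORA74A and SNORA74D and lies inside a row named MATR3 on the same strand, which held 0 counts in 5 libraries and 1 count in exposed replicate 2. Its level was 20.04, 22.6 and 23.5 CPM in controls and 7.33, 11.0 and 10.7 CPM in exposed cells, and exposed replicate 1 was the lowest library. The log2 fold change was -1.19 ± 0.13 (adjusted p = 4.2e-09, edgeR), or 2.28-fold lower.

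DANCR (chr4:52712404-52720351, plus strand), named for its role against differentiation in epidermal progenitors, was the most abundant per exon length of the members that fell. It carries 1 named small RNA, SNORA26 (chr4:52713249-52713370, plus strand, GENCODE 29), an H/ACA snoRNA like the SNORA13 of the strongest riser, shown with its ACA in capitals for that comparison.
SNORA26: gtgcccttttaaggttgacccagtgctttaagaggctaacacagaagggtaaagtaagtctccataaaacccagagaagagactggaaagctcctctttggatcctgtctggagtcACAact
DANCR stood at 56.6, 62.9 and 61.3 CPM in controls and 34.7, 34.95 and 30.5 CPM in exposed cells. All 3 exposed libraries were below 36 CPM and all 3 controls above 56 CPM. The log2 fold change was -0.85 ± 0.09 (adjusted p = 1.4e-09, edgeR), the mean going from 60.3 ± 3.30 to 33.4 ± 2.47 CPM (SD, n = 3). The SNORA26 row held 5, 9 and 16 counts in controls and 0, 4 and 1 in exposed libraries, without overlap. The SNORA13 row held 6, 8 and 5 in controls and 2, 9 and 10 in exposed libraries, and its groups overlapped. Counts this few do not show whether either snoRNA moved with its host.

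SNHG20 and SNHG14 fell by nearly the same amount. SNHG20 (chr17:77086716-77099902, plus strand) carries SCARNA16, a guide of the Cajal body class, and overlaps SEC14L1 on its own strand. It stood at 12.1, 12.2 and 12.7 CPM in controls and 6.86, 6.49 and 5.66 CPM in exposed libraries (-0.96 ± 0.13, adjusted p = 3.6e-07, edgeR). SNHG14 (chr15:24978583-25419462, plus strand) is the long imprinted transcript of the Prader-Willi region, with 83 box C/D snoRNAs of the SNORD115, SNORD116 and related families, and runs antisense to UBE3A. It stood at 26.3, 21.1 and 22.5 CPM and 10.1, 13.9 and 12.3 CPM (-0.95 ± 0.12, adjusted p = 8.2e-08, edgeR), with control replicate 1 the highest and exposed replicate 1 the lowest library. UBE3A on the opposite strand had means going from 53.7 to 54.5 CPM (0.02, adjusted p = 0.85) and did not pass.

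The remaining falls were below 1.5-fold or rested on few counts. SNHG15, host of SNORA9, stood at 31.5, 39.9 and 34.2 CPM in controls and 25.6, 23.5 and 25.3 CPM in exposed libraries (-0.50 ± 0.10, adjusted p = 9.3e-05, edgeR). SNHG11, host of SNORA60 and SNORA71E, stood at 22.5, 26.4 and 24.3 CPM and 19.3, 18.9 and 14.8 CPM (-0.47 ± 0.11, adjusted p = 0.00083). In both genes the groups did not overlap, and control replicate 2 was the highest library.

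SNHG3, whose SNORA73A and SNORA73B snoRNAs act in the cleavage of the ribosomal RNA precursor rather than as modification guides, stood at 36.2, 38.4 and 38.8 CPM in controls and 30.1, 28.7 and 27.8 CPM in exposed cells (-0.39 ± 0.09, adjusted p = 0.00066, edgeR). It varied little inside each group. SNHG21, host of SCARNA15, had only 22 to 57 counts in a library and stood at 1.47, 1.01 and 1.56 CPM and 0.824, 0.711 and 0.638 CPM (-0.90 ± 0.34, adjusted p = 0.031, edgeR). That call was lost in DESeq2 (adjusted p = 0.0793) and when control replicate 1 (0.0958), control replicate 3 (0.124), exposed replicate 2 (0.0556) or exposed replicate 3 (0.0948) was left out.

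**Figure D2:**
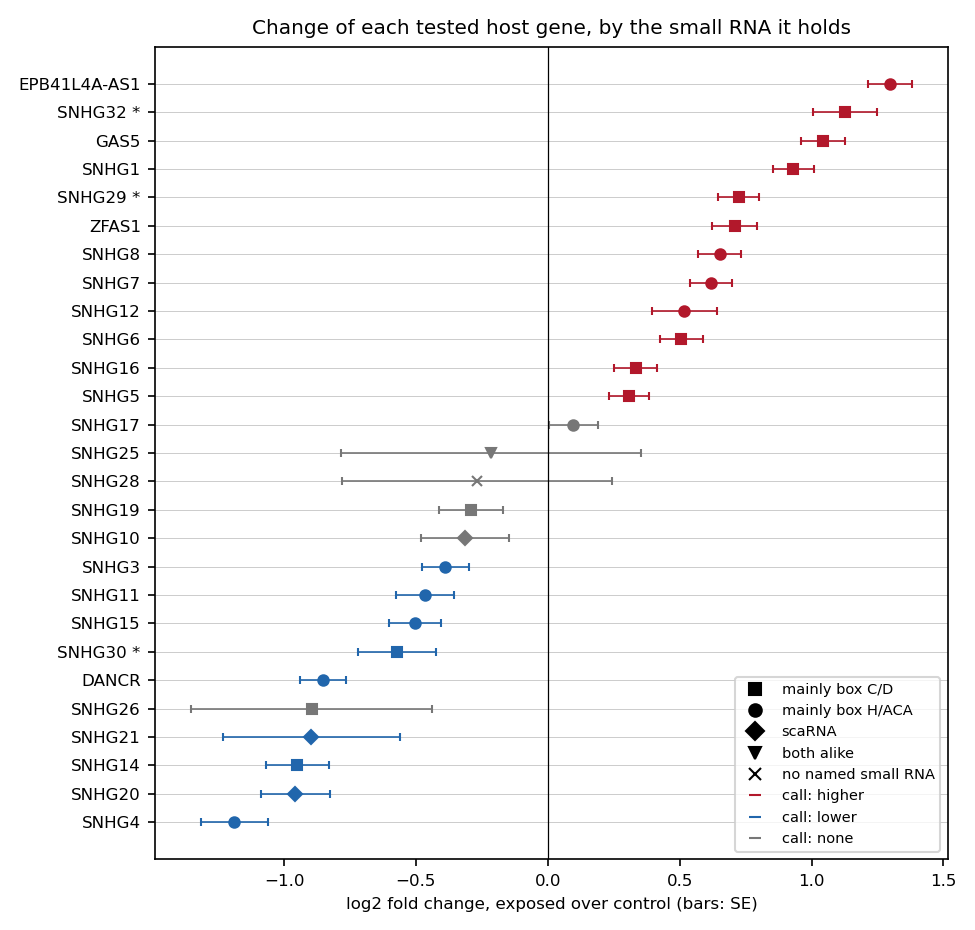
Log2 fold change of exposed over control for each tested host gene, with bars of 1 standard error; the shape gives the class of small RNA that most of its cargo belongs to, the colour the call, and an asterisk marks the 3 genes matched by gene identifier. Box C/D hosts (squares) and H/ACA hosts (circles) both occur at the top, while the 3 scaRNA hosts (diamonds) all lie below 0.

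Of the 6 tested members that did not pass, SNHG19 was nearest the threshold. SNHG19, a 562-base locus with 342 bases of exon that holds SNORD60, stood at 14.8, 18.3 and 15.6 CPM in controls and 15.4, 11.5 and 12.8 CPM in exposed libraries (-0.29 ± 0.12, adjusted p = 0.051, edgeR), the groups overlapping through exposed replicate 1. It was called lower under a filter of at least 1 CPM in 3 libraries (adjusted p = 0.0355), without control replicate 1 (0.0325) and without exposed replicate 1 (0.00987). SNHG26, host of SNORD93, lay below its controls in every exposed library, at 0.643, 0.547 and 0.905 CPM against 0.530, 0.226 and 0.360 CPM, but on 7 to 33 counts it did not pass (-0.90 ± 0.46, adjusted p = 0.11, edgeR).

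SNHG17, the host of 4 SNORA71 snoRNAs, was well counted and showed the smallest difference of all 24, from 29.5 ± 2.04 to 31.6 ± 1.25 CPM (0.10 ± 0.09, adjusted p = 0.42, edgeR). SNHG10, host of SCARNA13, stood at 6.24, 5.64 and 6.503 CPM in controls and 3.80, 5.14 and 5.85 CPM in exposed cells (-0.31 ± 0.17, adjusted p = 0.13), overlapping through exposed replicate 3. SNHG25 and the tested SNHG28 row lay under 1 CPM in every library, at -0.22 ± 0.57 (adjusted p = 0.79) and -0.27 ± 0.51 (adjusted p = 0.7), with standard errors too wide to place either.

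The 5 rows that were not tested held almost nothing. SNHG18, SNHG27 and the second SNHG28 identifier had 0 counts in all 6 libraries. That allows up to 3 counts in each (counting error only), or 0.0813 to 0.0969 CPM before TMM scaling. SNHG9, host of SNORA78, had 5, 12 and 7 counts in controls and 7, 9 and 5 in exposed libraries. SNHG22, host of SCARNA17, had 6, 6 and 3 against 3, 9 and 8.

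The 3 hosts under older symbols split the same way. SNHG32 (C6orf48, host of SNORD48 and SNORD52) stood at 41.3, 47.3 and 38.0 CPM in controls and 108, 73.4 and 95.2 CPM in exposed libraries (1.13 ± 0.12, adjusted p = 1.5e-06, edgeR), with exposed replicate 2 again lowest of its group. SNHG29 (LRRC75A-AS1, host of SNORD49A, SNORD49B and SNORD65) stood at 181, 204 and 188 CPM and 337, 285 and 324 CPM (0.72 ± 0.08, adjusted p = 4.8e-09). SNHG30 (LINC02001, host of SNORD7) fell, from 7.18, 7.37 and 7.57 CPM to 5.33, 4.91 and 4.66 CPM (-0.57 ± 0.15, adjusted p = 0.0021). In none of the 3 did the groups overlap. With them counted, 12 of 27 tested hosts were higher and 9 lower, beside 21.8% and 22.1% of all tested genes.

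Levels of different genes were compared per exon length, as CPM per 1000 bases of merged exon. Merged exons join all annotated transcripts of a gene, 29 in GAS5 and 1 in SNHG19. They are not the length of the transcript expressed, so the order can depend on the annotation. In control cells GAS5 led, at 63.8, followed by SNHG8 at 60.3, SNHG7 at 57.2, SNHG6 at 56.0, SNHG19 at 47.4 and SNHG5 at 43.1. In controls the libraries of GAS5, SNHG8 and SNHG7 overlapped on this scale (GAS5 had an SD of 6.52 and SNHG7 of 5.01, n = 3), as did those of SNHG7 and SNHG6. In exposed cells GAS5 reached 131, with an SD of 10.3, and stood apart from SNHG8 at 94.7, SNHG7 at 87.8 and SNHG6 at 79.5. EPB41L4A-AS1 moved from 14.7 to 36.1 and passed DANCR, which went from 26.4 to 14.6. Members called higher had a median control level of 30.2 per 1000 bases, those called lower 6.80 and those not called 2.25, as a description of unequal and small sets.

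**Figure D3:**
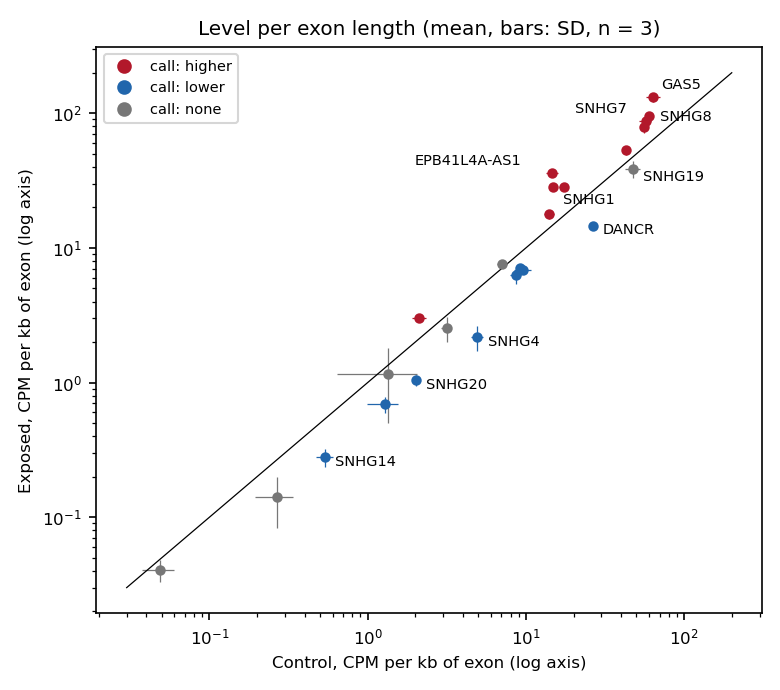
Mean level in exposed against control libraries for each tested host gene, in CPM per 1000 bases of merged exon on log axes, with bars of 1 SD (n = 3) and the diagonal of equal level. Members called higher lie above the diagonal, led by GAS5 at 63.8 in control and 131 in exposed cells, and those called lower lie beneath it from DANCR down to SNHG14.

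The hosts were also grouped by their cargo in RefSeq. Of 9 tested hosts of mainly box C/D snoRNAs 6 were higher (GAS5, SNHG1, ZFAS1, SNHG6, SNHG16, SNHG5), SNHG14 was lower and SNHG19 and SNHG26 did not pass. Of 10 tested hosts of mainly box H/ACA snoRNAs 4 were higher (EPB41L4A-AS1, SNHG8, SNHG7, SNHG12), 5 were lower (SNHG4, DANCR, SNHG15, SNHG11, SNHG3) and SNHG17 did not pass. Of the 3 scaRNA hosts SNHG20 and SNHG21 were lower and SNHG10 did not pass. Beside the 21.8% and 22.1% of all genes called higher and lower, these are counts in small sets chosen by name, and the classes were not tested against each other.

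The small RNAs themselves were scarcely counted. The annotation places 137 snoRNA or scaRNA rows inside the 29 host rows, 84 of them inside SNHG14, and 106 of the 137 had no count in any library. Together they held 181, 221 and 204 counts in controls and 153, 152 and 190 in exposed libraries. SNORD104 in SNHG25 had the most, 247 over the 6 libraries, and SNORA71B in SNHG17 had 146. The merged exons of a host can cover most of its locus, 3756 of 3927 bases in SNHG1. Spliced and unspliced host RNA were therefore not told apart. The counting tool is unknown, so the few counts of these rows do not give the level of mature snoRNAs. Whether a snoRNA moved with its host was not tested.

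The starts of the hosts hold the TOP tract often, on both sides of the change. The tract was searched on the gene's own strand as a C followed by at least 4 C or T, in RefSeq promoters of 300 bases (GRCh38.p14), which were present for 24 of the 28 symbols. No promoter entry was used for SNHG6, SNHG9, SNHG15 and SNHG25. The 60 bases around the annotated start, 30 on each side, (the start base counted in the second 30) are shown first for hosts with a tract within 5 bases of that start: hosts that rose, SNHG19, which did not pass, and SNHG4 and DANCR, which fell. Capitals mark the tract.
SNHG5: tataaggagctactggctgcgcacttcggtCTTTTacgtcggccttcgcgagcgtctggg
ZFAS1: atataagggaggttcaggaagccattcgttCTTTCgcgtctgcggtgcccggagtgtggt
SNHG16: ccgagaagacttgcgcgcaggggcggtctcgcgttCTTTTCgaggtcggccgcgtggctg
SNHG8: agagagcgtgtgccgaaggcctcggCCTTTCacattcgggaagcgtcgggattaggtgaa
SNHG12: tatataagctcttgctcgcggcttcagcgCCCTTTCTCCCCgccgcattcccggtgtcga
SNHG7: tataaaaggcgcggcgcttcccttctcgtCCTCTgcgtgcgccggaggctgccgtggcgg
SNHG32: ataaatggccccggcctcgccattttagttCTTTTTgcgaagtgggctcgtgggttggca
SNHG19: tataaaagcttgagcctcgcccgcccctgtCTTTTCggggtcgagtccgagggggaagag
SNHG4: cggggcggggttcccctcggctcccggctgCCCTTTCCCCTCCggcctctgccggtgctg
DANCR: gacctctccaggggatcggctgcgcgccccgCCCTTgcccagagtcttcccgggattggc
The RefSeq starts of EPB41L4A-AS1, GAS5 and SNHG1, the 3 members with the largest rises, have no tract within 5 bases, nor do those of SNHG20 and SNHG11, both lower in exposed cells. They are shown for contrast without capitals. The GENCODE start of GAS5 printed above lies elsewhere.
EPB41L4A-AS1: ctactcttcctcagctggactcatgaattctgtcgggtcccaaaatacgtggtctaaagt
GAS5: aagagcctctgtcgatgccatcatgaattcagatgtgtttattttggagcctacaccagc
SNHG1: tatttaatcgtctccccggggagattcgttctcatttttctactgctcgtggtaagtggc
SNHG20: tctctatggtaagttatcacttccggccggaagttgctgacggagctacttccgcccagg
SNHG11: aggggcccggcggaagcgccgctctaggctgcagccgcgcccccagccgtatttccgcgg

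The windows lie at chr6:85678704-85678763 (SNHG5, minus strand), chr20:49278612-49278671 (ZFAS1, plus), chr17:76557734-76557793 (SNHG16, plus), chr4:118278732-118278791 (SNHG8, plus), chr1:28581844-28581903 (SNHG12, minus) and chr9:136728155-136728214 (SNHG7, minus). Those of the others lie at chr6:31834886-31834945 (SNHG32, plus), chr16:2155329-2155388 (SNHG19, minus), chr5:139274071-139274130 (SNHG4, plus), chr4:52712364-52712423 (DANCR, plus), chr17:77088613-77088672 (SNHG20, plus) and chr20:38446624-38446683 (SNHG11, plus), with chr5:112160496-112160555 for EPB41L4A-AS1 (plus), chr1:173869016-173869075 for GAS5 (minus) and chr11:62855856-62855915 for SNHG1 (minus). In SNHG5, ZFAS1 and SNHG19 the run CTTT begins at the annotated start base, and SNHG4, with the largest fall, has a longer tract of 13 pyrimidines in the same place.

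A tract beginning within 25 bases of the start was present in 20 of 24 member promoters (83.3%), against 56.4% of all 35116 promoters in the table. Within 5 bases it was present in 11 (45.8% against 21.1%), and at the start base itself in 6 (25% against 4.07%). With at least 7 C or T after the C it was present in 5 (20.8% against 17.9%). Among tested members with a tract within 5 bases 6 were higher, 2 lower and 2 did not pass, and among those without it 3 were higher, 5 lower and 3 did not pass, beside 21.8% higher and 22.1% lower of all tested genes; the counts were not tested against each other. The E-box CACGTG, which reads the same on both strands, was in 1 of 24 member promoters, that of SNHG7 (4.17% against 7.26% of all), and GCGTG on either strand in 16 (66.7% against 36.5%). A match describes letters only.

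The transcripts of GENCODE 29, the annotation whose coordinates the table carries, gave a like picture. At least 1 transcript began with the tract in 14 of the 29 host rows (48.3%), against 4.11% of 14959 long non-coding genes and 6.58% of 58676 genes. Hosts have many annotated transcripts, which raises such a count. Annotated starts were taken as given, and some lie inside the gene. The only such transcript of SNHG1 begins at chr11:62855479, while the gene begins at 62855914 on the minus strand. Per transcript the shares were 12.8% of 258 for hosts, 2.50% for long non-coding genes and 2.41% for all genes. Of the 13 tested hosts with such a transcript 8 were higher, SNHG3, SNHG11 and SNHG4 were lower and 2 did not pass. Of the 11 without, SNHG7 and EPB41L4A-AS1 were higher, 5 were lower and 4 did not pass. Over all tested genes 21.8% were called higher and 22.1% lower, and hosts with and without such a transcript were not tested against each other.

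Neighbouring genes did not follow a single direction. Start sites of 5 members lie within 1 kb of the start of a protein-coding gene on the other strand, pointing apart: SNHG1 with SLC3A2 at 188 bases, SNHG9 with RPS2 at 99, SNHG19 with TRAF7 at 340, SNHG22 with ACAA2 at 63 and SNHG18 with SEMA5A at 125. SLC3A2, the heavy chain of amino acid transporters, rose from 1141 ± 93.7 to 3136 ± 171 CPM (1.46 ± 0.09, adjusted p = 6e-15; mean ± SD, n = 3, edgeR), in the same direction as SNHG1. TRAF7 rose (0.27 ± 0.08, adjusted p = 0.0046) beside SNHG19, which did not, and RPS2 rose (0.27 ± 0.09, adjusted p = 0.015) beside the barely counted SNHG9, a call lost without control replicate 1 or 3 or exposed replicate 1. ACAA2 did not pass (-0.03 ± 0.10), and SEMA5A had too few counts to be tested.

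Genes that overlap a member matter more here, since reads could be shared. Counting divergent and overlapping protein-coding genes together, a comparison added after the values were seen, 9 pairs had both genes called, 3 in the same direction and 6 in opposite directions. EPB41L4A, on the strand opposite EPB41L4A-AS1, fell from 9.47 to 4.82 CPM (-0.97 ± 0.16, adjusted p = 7.9e-06). ZNFX1, opposite ZFAS1, fell from 122 to 90.8 CPM (-0.42 ± 0.08, adjusted p = 3.6e-05). Both hosts thus moved against the gene they overlap.

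ZBTB37, opposite GAS5, rose from 15.5 to 24.6 CPM (0.66 ± 0.11, adjusted p = 1e-05), and FAM69B, opposite SNHG7, from 22.9 to 28.3 CPM (0.30 ± 0.10, adjusted p = 0.0097). These 2 moved with their hosts, FAM69B losing its call without control replicate 1. SIL1, opposite the falling SNHG4, rose from 56.2 to 80.3 CPM (0.52 ± 0.08, adjusted p = 2.5e-06). On the same strand, RCC1 rose beside SNHG3 (0.21 ± 0.08, adjusted p = 0.029) and SEC14L1 beside SNHG20 (0.25 ± 0.08, adjusted p = 0.014). SEC14L1 lost its call without control replicate 3, and RCC1 without control replicate 1 or 3 or exposed replicate 1 or 3. Whether reads moved between such pairs was not tested.

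Beside the 22.1% of all tested genes called lower and 21.8% called higher, the proteins that bind and assemble snoRNAs were counted in 2 lists. Of 8 tested snoRNP core protein genes none was higher and 3 were lower: NOP58 (from 39.6 ± 2.83 to 17.3 ± 0.563 CPM, -1.19 ± 0.10, adjusted p = 7.2e-12), NOP56 (-0.78 ± 0.08, adjusted p = 6.6e-10) and DKC1 (-0.68 ± 0.09, adjusted p = 9.3e-08). NOP56 and NOP58 are core proteins of box C/D particles and DKC1 is the pseudouridine synthase of H/ACA particles. The C/D methyltransferase FBL did not pass (-0.04 ± 0.07, adjusted p = 0.73). NOP58 stood at 40.6, 36.4 and 41.8 CPM in controls and 18.0, 17.0 and 17.1 CPM in exposed cells, so its fall ran opposite to the rise of the C/D hosts GAS5 and SNHG1. Of 16 assembly and maturation factors none was higher and 8 were lower, among them the ATPase RUVBL1 (-0.87 ± 0.08), the DKC1 chaperone SHQ1 (-0.83 ± 0.10), the cap methylase TGS1 (-0.73 ± 0.11) and the nucleolar chaperone NOLC1 (-0.60 ± 0.07; largest adjusted p of these 4 = 1.3e-06, edgeR). The list medians were -0.20 and -0.25, beside -0.02 over all tested genes. Leaving out a library moved the count of lower assembly factors between 5 (without exposed replicate 3) and 11 (without control replicate 2; NOP10 of the core list is the only gene of either list then called higher).

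**Figure D4:**
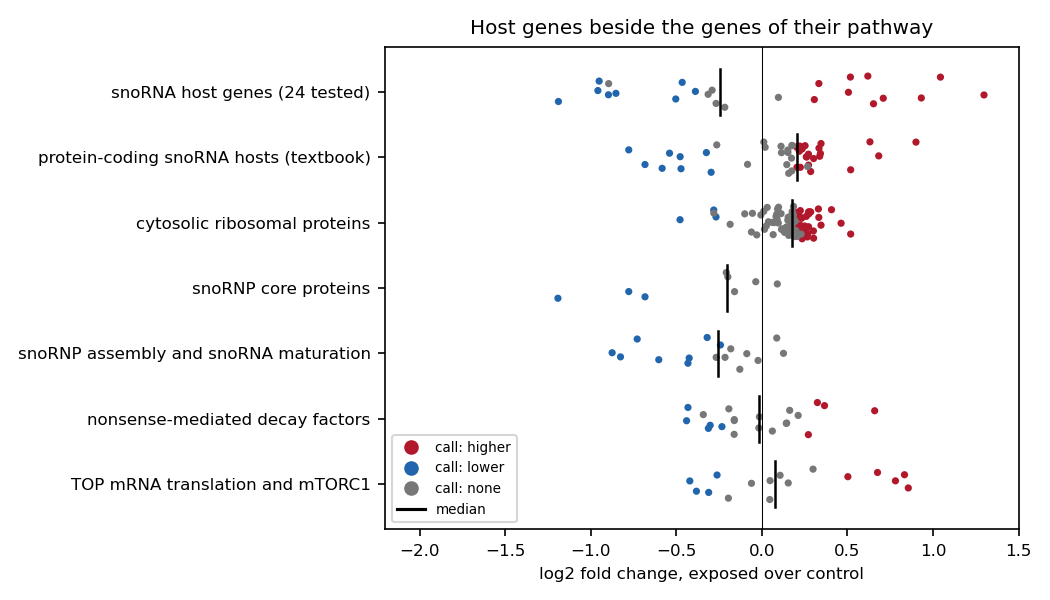
Log2 fold change of exposed over control for each tested gene of the host set and of 6 lists from the same pathway; points are genes, coloured by call, and the black line is the median of the list. The host genes spread from -1.19 to 1.30, most ribosomal protein genes lie between 0 and 0.52, and no snoRNP core or assembly gene was called higher.

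The changes of textbook protein-coding hosts lay between -0.78 and 0.90, inside the range of the non-coding hosts. Of the 46 tested 23 were higher and 8 lower, with a median of 0.20, beside 21.8% and 22.1% of all tested genes. Many of the 46 are ribosomal protein genes, RPL12 and RPS12 among them, and these are counted again in the next paragraph. The annotated hosts that follow also include ribosomal protein genes, so the lists are not separate. Of 231 tested protein-coding genes with an annotated snoRNA or scaRNA inside them 78 were higher and 53 lower, with a median of 0.09; these include SNHG32 and SNHG28, without which 77 of 229 were higher and 53 lower. The mitochondrial chaperone HSPA9 rose from 234 to 436 CPM (0.90 ± 0.07) and the translation factor EIF4A2 from 809 to 1298 CPM (0.68 ± 0.08). NOP56 and DKC1 are themselves snoRNA hosts and fell, as given above. NCL (-0.58 ± 0.08), the nucleolin gene, CCAR1 (-0.54 ± 0.10) and SF3B3 (-0.48 ± 0.07) were lower as well. The largest adjusted p among HSPA9, EIF4A2, NCL, CCAR1 and SF3B3 was 2.7e-05 (edgeR). The count of higher textbook hosts was 11 without control replicate 1 or exposed replicate 1, 12 without control replicate 3 and 14 without exposed replicate 3. It was 28 without control replicate 2 and 27 without exposed replicate 2. With every library kept it was 11 when replicate number was added to the fit. The count of lower textbook hosts stayed at 7 or 8.

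Ribosomal protein genes, whose messenger RNAs are the classical TOP transcripts, shifted by little. Of 86 tested 33 were higher and 3 were lower, with a median of 0.18, beside 21.8% and 22.1% of all tested genes. The higher count was unstable. It was 10 without control replicate 1, 11 without control replicate 3, 12 without exposed replicate 1 and 18 without exposed replicate 3. It was 54 without control replicate 2 and 51 without exposed replicate 2. With every library kept it was 14 when replicate number was added to the fit and 42 in DESeq2. The largest rises were in RPL12 (0.52 ± 0.09, adjusted p = 1.7e-05) and RPL10A (0.46 ± 0.08, adjusted p = 2.1e-05, edgeR). RPS26 (-0.28 ± 0.08) and RPL7L1 (-0.27 ± 0.07) were among the lower ones, RPS26 not so without exposed replicate 3. The list was taken by symbol, and RPL7L1 is a ribosomal protein-like gene that the symbol pattern takes in. The rises of GAS5, SNHG1 and EPB41L4A-AS1 exceeded that of every ribosomal protein gene tested, though differences between genes were not tested.

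Of 21 tested genes of nonsense-mediated decay 4 were higher and 5 were lower, near the 21.8% and 22.1% of all tested genes, with a median of -0.02. The lower count was 2 without control replicate 1 or 3, 3 without exposed replicate 1 and 7 without control replicate 2. CASC3, an exon junction protein, was higher (0.66 ± 0.07) and UPF3A as well (0.37 ± 0.09). RBM8A (-0.44 ± 0.08) and EIF4A3 (-0.31 ± 0.07), both of the exon junction core, were lower (largest adjusted p of the 4 = 0.0017, edgeR). The central helicase UPF1 stood at 189, 199 and 188 CPM in controls and 191, 185 and 193 CPM in exposed cells (-0.02 ± 0.07) and did not pass.

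Among 16 genes of TOP translation and the mTORC1 kinase that controls it, 5 were higher and 4 lower, with a median of 0.08, beside 21.8% higher and 22.1% lower of all tested genes. LARP1, which binds the TOP tract, rose from 311 ± 12.5 to 497 ± 40.5 CPM (mean ± SD, n = 3; 0.68 ± 0.08). The translation repressor EIF4EBP1 (0.83 ± 0.08), the mTORC1 inhibitor TSC1 (0.86 ± 0.08) and the mTORC1 activator RHEB (0.78 ± 0.08) also rose (largest adjusted p of the 4 = 1.6e-08, edgeR). EIF4EBP2 (-0.42 ± 0.07), RPS6KB1 (-0.38 ± 0.11), TSC2 (-0.26 ± 0.07) and EIF4E (-0.31 ± 0.10) fell, TSC2 losing its call without exposed replicate 3 and EIF4E without control replicate 3 or exposed replicate 2. Transcript levels do not give the activity of this pathway, which was not measured.

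Transcription regulators read beside the hosts moved in both directions. MYC, a driver of ribosome production genes, stood at 40.7, 37.7 and 43.8 CPM in controls and 11.2, 7.59 and 8.76 CPM in exposed cells (-2.15 ± 0.12). ATF4, the transcription factor of the integrated stress response, stood at 243, 291 and 254 CPM and 612, 597 and 566 CPM (1.17 ± 0.08). MXD1, an antagonist of MYC at shared sites, was higher (1.17 ± 0.18), as were MXI1 (0.50 ± 0.09) and AHR (0.53 ± 0.12). The largest adjusted p among these 5 was 0.00087 (edgeR). Their part in the change of the host genes was not tested.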

How the data were processed

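The authors deposited raw counts per gene for 3 control and 3 exposed libraries. Their genome build was GRCh38, as the submitters' processing notes have it, and aligner, counting tool and strand setting were not found in the sources used here. Its 58735 rows match GENCODE 29 in coordinates and strand, and 26945 had no count. Sample titles gave the groups and replicate numbers. Testing used edgeR 4.0.16 in R 4.3.3 (filterByExpr with a minimum count of 10 and total of 15, TMM scaling, robust quasi-likelihood fit) over all 17337 genes kept, with Benjamini-Hochberg adjustment and a threshold of 0.05. Standard errors of log2 fold changes were taken as the absolute change over the square root of its F statistic. CPM rest on library sizes scaled by TMM; each error is an SD over 3 libraries. In counts simulated from these libraries for exposed against control (17013 genes), recovery was 74.6% at a 1.5-fold change, 94.0% at 2-fold and 100% at 4-fold, with 4 of 16813 unchanged genes called. The changed genes, 67, 67 and 66 at these folds, were drawn from well-counted genes and were few beside those called in the data. Recovery of low-count members such as SNHG21 was not tested. Library pairs within a group differed by more than counting noise (chi-square per degree of freedom 5.59 to 11.1), and no pair was identical.

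Text names every row of the host set, from each gene list the 4 genes with the smallest adjusted p and those moving against the list, and divergent neighbours within 1 kb; overlapping neighbours, and the genes named to complete a count, were added after their values were seen. Some genes this rule selects are not reported here. Members and lists were chosen with earlier results of these data known. Alternatives were DESeq2 1.42.0, limma-voom (limma 3.58.1), other size factors and count filters, a fold minimum, a replicate block, scaling without mitochondrial genes and leaving out each library. Sequences are from RefSeq (GRCh38.p14) and GENCODE 29.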

Additional observations from a re-analysis of the deposited data

How the results depend on the processing

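The count of 10 members called higher was the same under every normalization, filter, tool, pairing and leave-one-out setting run (10 when any single library was left out), and the count of 8 called lower ranged from 7 to 9 over the same settings. Fold thresholds moved both counts: asking for more than a 1.5-fold change left 3 higher and 4 lower, and an absolute log2 fold change of at least 1 left 2 higher and 1 lower. Over all genes, counts called higher and lower were 715 and 783 against a 1.5-fold change and 634 and 964 with the log2 minimum, and ranged from 3164 to 3860 and from 3098 to 3777 when a library was left out. Of 348 values of single members under these settings 338 kept direction and side of the threshold, 5 lost the call (all SNHG21) and 3 gained it (all SNHG19); the other 2 were SNHG25, not called in any setting, whose log2 fold change of -0.22 became 0.16 without control replicate 2 and 0.17 without exposed replicate 3. Of 2662 values of other genes 164 lost a call, 82 gained one and 44 changed sign with no call in either fit; no called value changed sign. The cause was not tested. Same-numbered libraries did not deviate together (correlations -0.128, -0.122 and 0.00474), so the numbers were not used as pairs; with the replicate block 10 members were higher and 8 lower, and 3359 and 3420 of all genes. The count of 20 members with a start tract became 11 within 5 bases and 5 with the longer tract, and 14 rows had a GENCODE transcript beginning with it. Few counts limit SNHG21, SNHG26, SNHG25 and SNHG28, and 3 libraries a group limit every SD.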
